A study of Mus musculus with 4 samples.

Results

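Genes of the Hedgehog pathway were followed in the mouse intestine, 9 in all: the ligand genes Dhh, Ihh and Shh, the receptor gene Ptch1, the transcription factor genes Gli1 and Gli2, the ligand-binding inhibitor gene Hhip, and the mesenchymal forkhead genes Foxf1 and Foxl1. They were chosen by name, as 9 of the 20886 named mouse genes that had a probe, and a probe was taken as theirs when its RefSeq accession mapped to the symbol. This gave 11 of the 39429 non-control probes, with 2 probes each for Hhip and Foxf1. Ileal RNA had been measured on 4 single-colour arrays. The 2 control and 2 metformin samples came from male C57BL/6J mice 10 weeks old, the metformin samples after oral treatment at 1000 mg/kg. The labels give no length of treatment, no vehicle and no statement that samples came from separate animals, so the spread between samples may be partly technical. An ileal piece holds epithelium, stroma, muscle, vessels and nerves, and in such bulk RNA fewer cells of a type and less RNA per cell cannot be told apart.

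Hedgehog ligands are secreted proteins. They bind the receptor Patched, which relieves its block on Smoothened and lets the GLI transcription factors switch on targets such as Gli1, Ptch1 and Hhip. In the adult gut the ligands come mainly from the epithelium and the response lies mainly in the stroma below it, where Foxf1 and Foxl1 are known mesenchymal targets; Dhh is known from Schwann cells and endothelium.

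Values are log2 of the processed spot signal minus the 75th percentile of that array, and a probe is called well above background by the scanner software. The 75th percentile signals ranged from 864 to 1453, and 65.2% to 69.1% of probes were well above background. The brightest of the listed epithelial and ileal marker genes are given, and as they were picked by brightness their level is no test of tissue identity. The epithelial genes Lgals4, Krt20 and Vil1 lay between 7.26 and 8.35 on every array, and the ileal genes Fabp6, Slc51a and Slc51b between 3.93 and 8.94. Of the ileal genes, Fabp6, Slc10a2 and Fgf15 were low on metformin 1. Fabp6 read 4.16 there against 8.29 to 8.94 elsewhere, Slc10a2 -0.89 against 3.28 to 4.93, and Fgf15 -0.82 against 1.10 to 3.36. Metformin 1 stood apart in ileal genes, with a summed level of 6 ileum markers of 69.0 against 414 to 623 on the other arrays (linear signal relative to the 75th percentile), and a summed level of 6 proximal small intestine markers of 711 against 87.6 to 173. Control 1 stood apart in muscle, with a summed level of 12 smooth muscle markers of 262 against 13.7 to 28.6. Values without metformin 1 or control 1 are given beside the tested members and Ptch1.

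Promoter sequence is shown for 3 members, because they span what the arrays show: Ihh, a ligand with a bright probe whose groups overlapped, Dhh, a ligand not well above background with metformin, and Hhip, a GLI target. RefSeq promoter entries of build GRCm38.p6 matched 5 of the 9 genes (Dhh, Ihh, Ptch1, Gli2 and Hhip). Each sequence is the 250 bases before the annotated start of the gene, 5′ to 3′ on the gene's minus strand, at chr1:74951673-74951922 for Ihh, chr15:98898541-98898790 for Dhh and chr8:80058009-80058258 for Hhip. Capitals mark the letters CCACCC or, on the opposite strand, GGGTGG, the core of the GLI motif GACCACCCA.
Ihh: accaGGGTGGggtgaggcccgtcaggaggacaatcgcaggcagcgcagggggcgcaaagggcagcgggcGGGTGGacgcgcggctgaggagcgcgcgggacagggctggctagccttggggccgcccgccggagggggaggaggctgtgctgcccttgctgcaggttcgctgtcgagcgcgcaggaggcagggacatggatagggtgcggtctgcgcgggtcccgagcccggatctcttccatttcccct
Dhh: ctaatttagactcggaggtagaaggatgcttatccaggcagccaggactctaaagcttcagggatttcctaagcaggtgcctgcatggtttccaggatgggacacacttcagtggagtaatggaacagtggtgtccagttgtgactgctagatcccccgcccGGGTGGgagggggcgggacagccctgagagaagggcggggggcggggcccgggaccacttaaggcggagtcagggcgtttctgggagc
Hhip: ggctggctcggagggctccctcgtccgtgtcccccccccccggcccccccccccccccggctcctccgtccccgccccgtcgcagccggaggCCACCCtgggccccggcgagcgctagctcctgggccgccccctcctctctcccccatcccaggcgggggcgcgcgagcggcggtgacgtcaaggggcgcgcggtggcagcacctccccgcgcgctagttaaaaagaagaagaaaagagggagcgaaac
The core was found 2 times before Ihh, 2 times before Gli2, 1 time each before Dhh and Hhip, and not before Ptch1; 28.1% of all 32851 promoter windows of the same length held it on either strand. The whole motif GACCACCCA, or TGGGTGGTC on the opposite strand, which contains the core, was in none of the 5 windows and in 0.225% of all. The forkhead core TGTTTAC, or GTAAACA, which overlaps neither, was likewise in none of the 5 and in 3.17% of all. GC content of the 5 windows was 59.6% for Dhh, 67.2% for Gli2, 72.0% for Ihh, 76.0% for Hhip and 78.4% for Ptch1, against a median of 52.4% over all. These matches describe letters only.

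Of the 11 probes, 5 were well above background on all 4 arrays (Ihh, Gli1, Foxl1, and 1 each of Hhip and Foxf1), 2 on some arrays (Dhh and Ptch1) and 4 on none. The 4 dim probes, for Shh, Gli2, and the second probes of Hhip and Foxf1, read between 1.53 and 6.01 signal units.

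**Figure D1:**
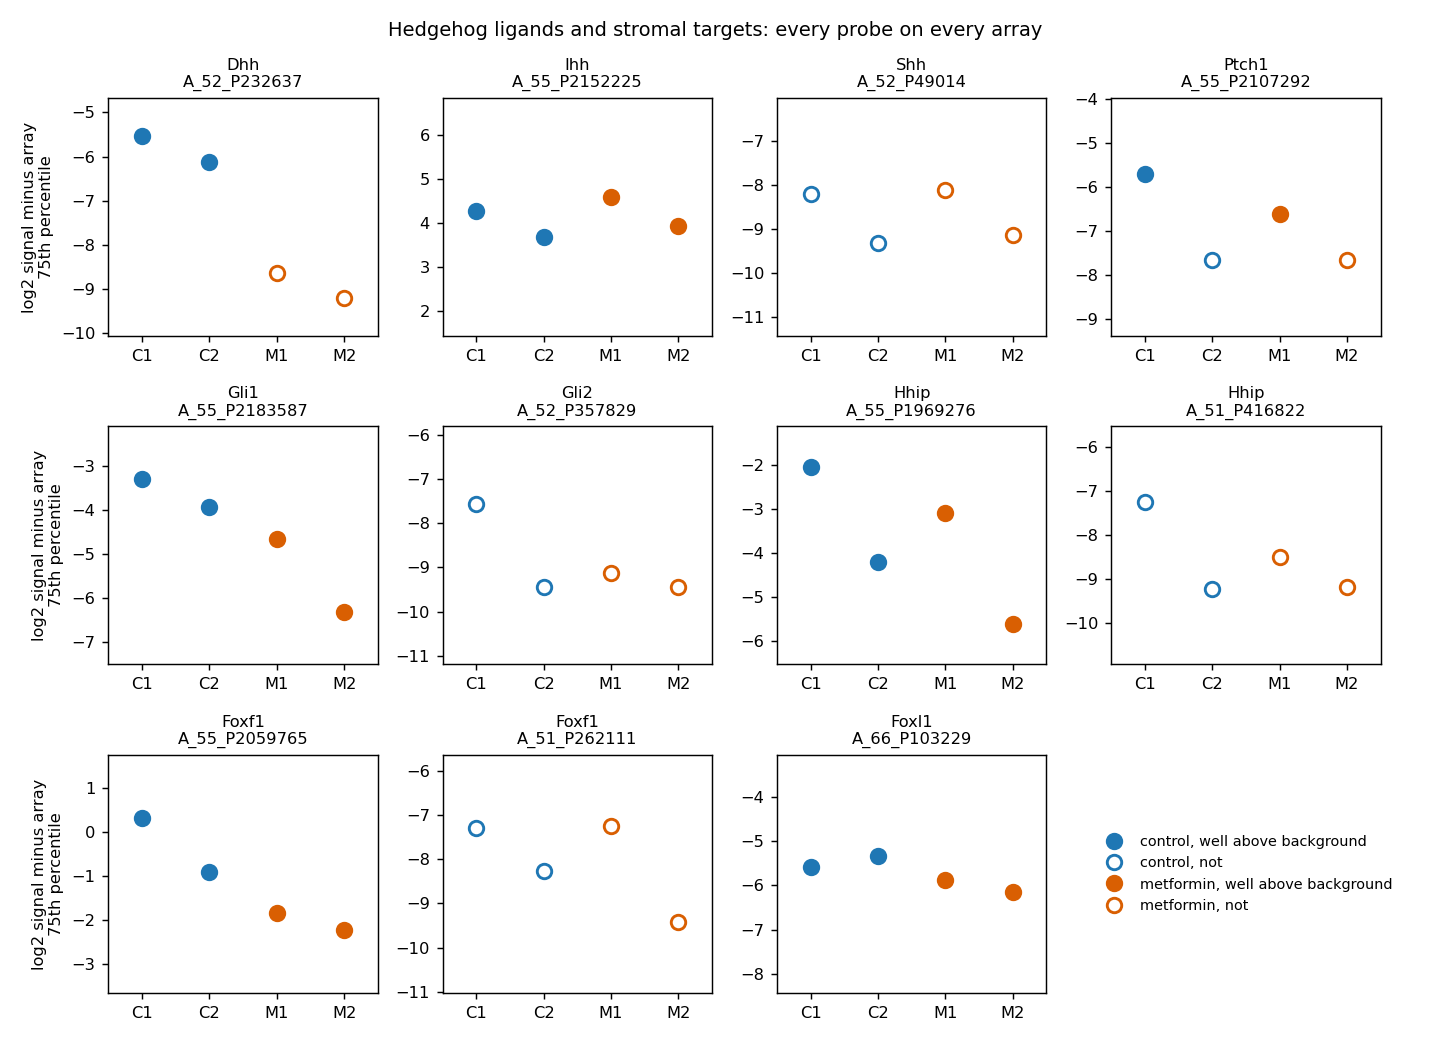
Level of each of the 11 probes on each array (y axis: log2 signal minus the array's 75th percentile, the same span of units in every panel; x axis: control arrays C1 and C2, metformin arrays M1 and M2). Filled points are well above background and open points are not: Gli1, Foxf1 (upper-signal probe), Foxl1 and Dhh have both metformin points below both control points, while Ihh and Hhip overlap.

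Indian hedgehog, Ihh, is the ligand made by differentiated enterocytes. Its probe read 4.27 and 3.69 on the control arrays, against 4.58 for metformin 1 and 3.92 for metformin 2. The groups overlapped, and metformin 1 was the highest and control 2 the lowest. In signal units the controls stood at 17683 and 18718, metformin 1 at 20712 and metformin 2 at 16151. The difference was 0.27 (SE 0.40, limma 95% interval -0.81 to 1.35, adjusted p = 0.9996 over all 21649 genes tested by Benjamini-Hochberg). Without control 1 the difference was 0.56, without control 2 -0.021, without metformin 2 0.60, without metformin 1 it was -0.059, and it was -0.027 in the deposited table without scaling. The epithelium markers had a median difference of 0.22 (0.38 without control 1 and 0.10 without control 2), and 11 of 13 were higher. Against the median of those 13 genes on the same array, where array scaling cancels, the Ihh difference was 0.012.

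Sonic hedgehog, Shh, known from crypts in the adult gut, was not well above background. Its probe is printed 10 times on each array, and 0 of the 10 spots were well above background on any array. Over the 10 spots the median signal was 3.19 for control 1, 2.26 for control 2, 3.61 for metformin 1 and 1.63 for metformin 2, with single spots from 1.36 to 4.80. Raw spot brightness averaged 28.1 to 30.5 units, beside a local background of 27.0 to 28.6. Shh was therefore not tested.

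Desert hedgehog, Dhh, was detected in controls only. It read -5.53 and -6.13 in the controls, both well above background, and -8.65 and -9.21 with metformin, where neither array was. In signal units (with the scanner software's own error of the spot) these were 19.8 (2.93) and 20.8 (2.72) against 2.15 (1.31) and 1.80 (1.31). The raw spots were dim throughout: 52.5 and 50.5 units beside local backgrounds of 25.5 and 27.0 in controls, and 29.0 and 31.0 beside 25.0 and 31.0 with metformin. Set against the lowest signals well above background, Dhh was 2.62-fold lower with metformin on this scale. That floor is the lowest signal of any probe so called, not a limit of this probe, so it gives no firm bound. Dhh passed the filter through the controls alone, and its limma adjusted p was 0.9996. The measured means differed by -3.10 (-3.38 without metformin 1 and -2.80 without control 1), but the metformin values lay below the level at which probes were called above background, so this difference is no measure of size. With normexp background correction it was -0.22 and in the deposited raw table -0.78, so its size rested on the processing. The Schwann cell and glia markers, 5 of 9 measured, had a median difference of 0.14. It was -0.56 without control 2, -0.48 without metformin 1 and 0.57 without control 1, so its direction rested on single arrays. Sox10 differed by 0.14 (SE 0.68) and Mbp by 0.33 (SE 0.31). The summed level of these markers was 7.41 to 8.02 in controls and 8.04 to 11.2 with metformin, almost all of it from Mbp. The glial genes S100b, Gfap, Foxd3 and Cdh19 were not measured above the filter. The endothelium markers, 11 of 14 measured, had a median difference of -1.07 with 8 lower. Those of smallest unadjusted p were Mmrn1 at -2.90 (SE 0.46), Cdh5 at -1.71 (SE 0.38) and Eng at -1.18 (SE 0.33). The summed level of the 11 endothelium markers was 4.72 to 6.25 in controls and 4.47 to 5.45 with metformin. Most of it came from Kdr, which differed by 0.15 (SE 0.39). The part of these cells in the Dhh values was not tested.

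Ptch1 encodes the Hedgehog receptor and is itself a target. It read -5.70 in control 1 and -7.66 in control 2, and -6.62 in metformin 1 and -7.65 in metformin 2. The probe was well above background on 1 array of each group, the samples numbered 1, and was not tested; the groups overlapped. The difference of its means was -0.46, and it was -1.44 without control 2, 0.52 without control 1, -0.97 without metformin 1 and 0.059 without metformin 2.

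Hhip encodes a membrane protein that binds and sequesters the ligands. Its brighter probe read -2.05 for control 1, -4.20 for control 2, -3.10 for metformin 1 and -5.60 for metformin 2. Metformin 1 lay above control 2, so the groups overlapped, and the spread within each group was wide (SD 1.52 and 1.77, n = 2 each). The difference was -1.22 (SE 1.14, 95% interval -4.27 to 1.82, adjusted p = 0.9996). Without metformin 2 it was 0.025, without metformin 1 -2.47, without control 2 -2.30, and without control 1 it was -0.15. The other Hhip probe was not well above background on any array.

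Gli1 is both an effector of the pathway and the target most used to read it out. It read -3.30 and -3.92 in the controls and -4.65 and -6.30 with metformin, well above background on all 4 arrays. Both metformin arrays lay below both controls, and metformin 2 was lowest. Its signal was 92.9 (spot error 9.67) for control 1 and 95.8 (9.81) for control 2, but 34.5 (3.79) for metformin 1 and 13.5 (2.07) for metformin 2. The difference was -1.86 (SE 0.65, 95% interval -3.61 to -0.11), or 3.64-fold lower, and did not pass over all genes (adjusted p = 0.9996, rank 273 by p). It was -2.69 without metformin 1, -1.04 without metformin 2, -1.55 without control 1 and -2.18 without control 2. With normexp correction it was -0.62, and in the deposited table -1.30 (-1.04 after scaling).

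Gli2, the main GLI activator upstream of Gli1, was not well above background on any array (signals of 4.88, 2.08, 1.54 and 1.53 in the order control 1, control 2, metformin 1, metformin 2) and was not tested.

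Foxf1 encodes a forkhead factor of gut mesenchyme and muscle. Its brighter probe read 0.31 and -0.92 in the controls and -1.83 and -2.21 with metformin. Both metformin arrays lay below both controls, at signals of 243 and 230 against 1137 and 770. The difference was -1.72 (SE 0.51, 95% interval -3.09 to -0.35), or 3.29-fold lower, and did not pass over all genes (adjusted p = 0.9996, rank 145 by p). With normexp correction it was -1.49, and the deposited table gave -1.87. It was -1.10 without control 1, the array rich in smooth muscle RNA, and -1.91 without metformin 1. The second Foxf1 probe was not well above background anywhere and read from -9.42 to -7.24.

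Foxl1 encodes a forkhead factor that marks subepithelial telocytes, stromal cells that feed signals to the crypt. It read -5.59 and -5.33 in the controls and -5.87 and -6.15 with metformin. The groups did not overlap, and all 4 arrays lay close together. The difference was -0.55 (SE 0.30, 95% interval -1.36 to 0.26, adjusted p = 0.9996). With normexp correction it was -0.10, and in the scaled deposited table -0.19. Without metformin 1 it was -0.69, without control 1 -0.68, without control 2 -0.42 and without metformin 2 -0.41.

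**Figure D2:**
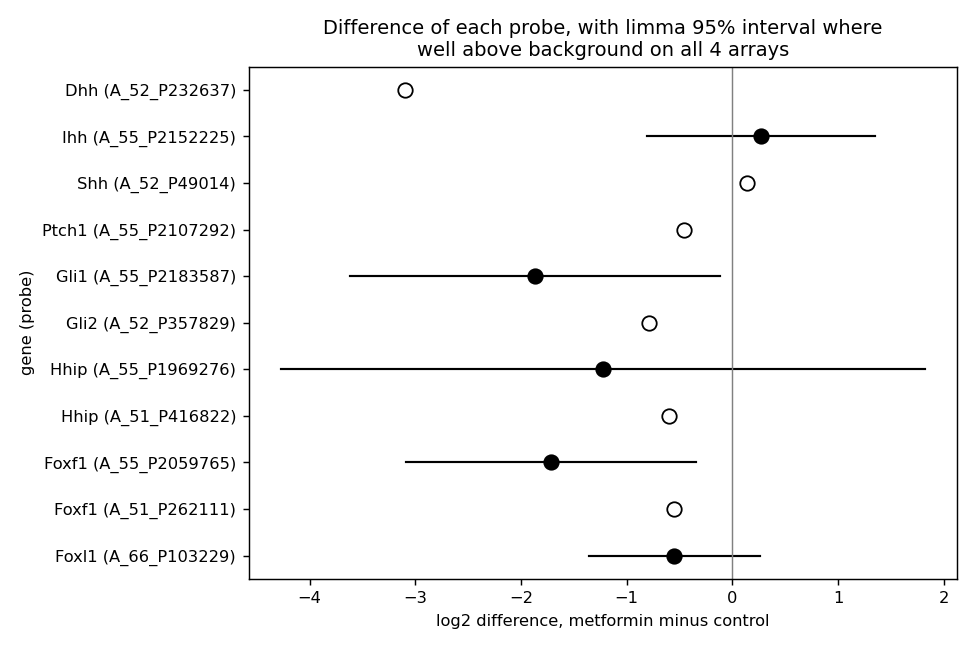
Difference between group means for each of the 11 probes (x axis: log2, metformin minus control; y axis: gene and probe), with limma's 95% interval for the 5 probes well above background throughout. Filled points are well above background on all 4 arrays; Gli1 at -1.86 and Foxf1 at -1.72 have intervals below 0, Ihh at 0.27 spans it, and the open Dhh point at -3.10 has no interval because its metformin spots were not above background.

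No gene on the arrays passed the adjusted test in either direction (0% of 21649 higher and 0% lower by limma), and 76 were higher (0.351%) and 271 lower (1.25%) at an unadjusted p under 0.05. Gli1 and Foxf1 were among the 271; Dhh was too, but its p rests on metformin values not above background and is not read here. In this design of 2 against 2 an exact permutation test of a single gene cannot go below 0.333. Counts are therefore given beside their background. Of the 5 members well above background on all 4 arrays, 4 were lower and 1 higher. Of all 20203 genes so detected, 93.3% of those tested, 42.9% were lower, as were 42.1% of all genes tested. Both metformin arrays lay below both controls for 3 of the 5 (Gli1, Foxf1 and Foxl1), against 8.27% of those genes, and 2 of the 5 were also at least 2-fold lower, against 1.9%. Over all tested genes, detected in full or not, the shares were 8.46% and 2.3%, and 0.633% were at least 2-fold higher without overlap. With 5 genes chosen by name, these counts describe the members and carry no test.

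Other genes of the pathway were taken from 4 lists by role, 37 genes in all, of which 31 were measured. None passed the adjusted test, and 0 reached an unadjusted p under 0.05 in limma. Both metformin arrays lay below both controls for 11 of the 31 and above them for 0, where 8.46% and 12.5% of all genes did. For 8 of the 31 the difference was also at least 2-fold, against 2.3% of all genes lower in this way. Their median difference was -0.33, against 0.062 over all genes.

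Of the 8, 3 were ligand release genes, 1 a transduction gene and 4 genes of the last list. Of 5 measured genes of ligand processing and release, 3 were 2-fold lower without overlap, against 2.3% of all genes tested. Scube1 and Scube2, secreted carriers that help release the lipid-bearing ligand, differed by -1.87 (SE 0.79) and -2.08 (SE 1.18). Gpc3, a cell-surface proteoglycan that binds Hedgehog, differed by -1.53 (SE 0.66). It read -2.62 in control 1, -4.36 in control 2, and -4.86 and -5.18 with metformin. Scube2 read -1.13 in control 1 and between -5.09 and -4.54 on the other 3 arrays, so control 1 alone was high. Without control 1 the median of these 5 genes was -0.38 in place of -1.53, and without metformin 2 it was -0.77. The acyltransferase Hhat and the ligand exporter Disp1 differed by -0.22 (SE 0.31) and 0.095 (SE 0.30).

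The receptor machinery showed smaller differences. Smo, the transducer that Patched restrains, read 0.90 and -0.19 in controls and 1.16 and 0.24 with metformin, a difference of 0.35 (SE 0.55). The co-receptors Boc, Gas1 and Cdon differed by -0.69 (SE 0.31), 0.28 (SE 0.38) and -0.21 (SE 0.48), with Boc free of overlap. The median of the 4 genes, 0.032, was 0.46 without control 1, -0.46 without control 2, -0.29 without metformin 1 and 0.25 without metformin 2.

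Of 13 measured signal transduction genes, 9 were higher and 4 lower, with a median of 0.087 (0.34 without control 1, -0.20 without control 2, -0.066 without metformin 1 and 0.20 without metformin 2). The GLI-binding inhibitor Sufu differed by 0.27 (SE 0.35), the casein kinase gene Csnk1a1 by 0.22 (SE 0.32), the protein kinase A subunit gene Prkar1a by 0.20 (SE 0.30) and the ubiquitin ligase gene Mgrn1 by 0.23 (SE 0.34). The exception by size was Evc2, a ciliary partner of Smoothened, at -1.96 (SE 0.91). Its partner Evc differed by -2.15 (SE 1.19), but was well above background on 1 metformin array only. Evc2 read -2.84 in control 1, -5.13 in control 2, and -5.34 and -6.55 with metformin.

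All 9 measured genes of the last list, Gli3 and genes known downstream, were lower, with a median of -0.85 (-0.77 with 8 of 9 lower without control 1, -1.38 without control 2, and -1.52 with 8 of 9 lower without metformin 1). Gli3, the GLI protein best known as a repressor, differed by -2.13 (SE 1.06), yet read -3.18 in control 1 against -6.92 to -6.23 elsewhere. Foxf2, the close relative of Foxf1, differed by -1.82 (SE 0.83) and the mesenchymal homeobox gene Nkx2-3 by -1.41 (SE 0.59). Foxf2 read -2.07 in control 1, -4.16 in control 2, and -4.42 and -5.44 with metformin. Nkx2-3 read -1.79, -2.89, -3.21 and -4.29 in the same order. Bmp4, a stromal signal that restrains crypts, read -0.09 and -0.81 in controls and -0.99 and -1.97 with metformin, a difference of -1.03 (SE 0.49). The homeobox gene Nkx3-2 and the cyclin gene Ccnd1 did not overlap, at -0.80 (SE 0.32) and -0.85 (SE 0.48), whereas Ccnd2 and Bcl2 overlapped, at -0.40 (SE 0.43) and -0.45 (SE 0.53).

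**Figure D3:**
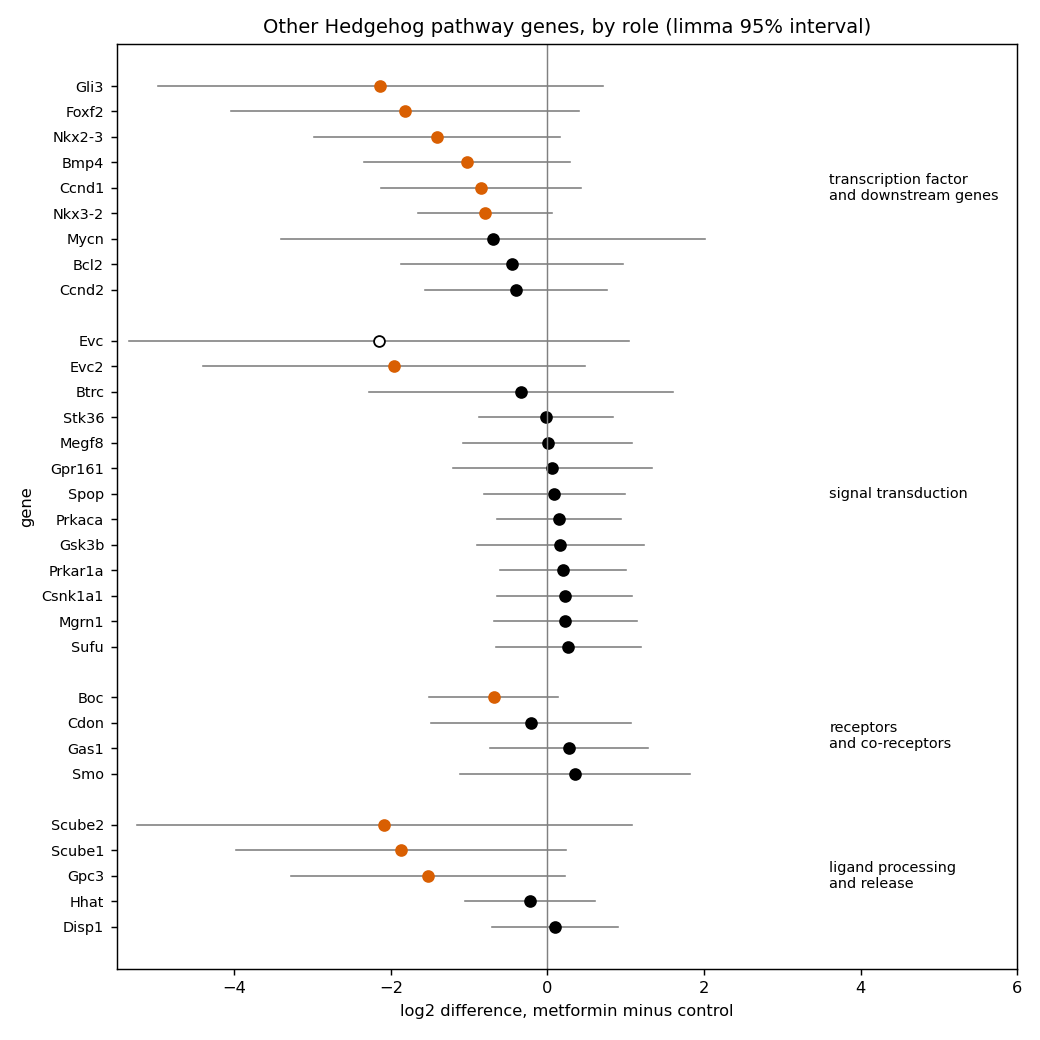
Differences of the 31 other measured pathway genes by role (x axis: log2, metformin minus control, with limma's 95% interval; y axis: gene). Orange points are genes whose metformin and control arrays did not overlap, all 11 of them lower; the open point, Evc, was not well above background on every array; 9 of 13 transduction genes lie above 0 and all 9 genes of the top group below it.

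Marker lists of stroma and muscle are given beside these genes. Fibroblast and matrix markers were lower in 11 of 12 (median -2.06, and -1.37 without control 1), with a summed level of 22.3 to 46.7 in controls and 7.78 to 19.9 with metformin. Examples are Sparc at -2.09 (SE 0.49), Dcn at -1.82 (SE 0.50) and Fn1 at -2.12 (SE 0.68). Subepithelial mesenchyme markers were lower in 6 of 7 (median -0.77, -2.03 without metformin 1 and -1.29 without control 2), among them Pdgfra, the receptor that marks these cells, at -1.50 (SE 0.55), Bmp7 at -0.77 (SE 0.61) and Wnt5a at -0.77 (SE 0.96). Their summed level was set by 1 gene, F3, and ran from 2.46 to 41.0 in controls and from 1.37 to 62.7 with metformin. Smooth muscle markers were lower in 12 of 12 (median -3.02, -0.64 without control 1 and -5.39 without control 2), for example Csrp1 at -1.63 (SE 0.74), Cald1 at -2.48 (SE 1.16) and Des at -3.32 (SE 1.63). Pericyte markers were lower in 6 of 6 (median -1.72, -0.61 without control 1 and -2.87 without control 2), with Notch3 at -1.34 (SE 0.42), and a summed level of 1.01 to 4.02 in controls and 0.435 to 0.898 with metformin. None of these passed over all genes.

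Differences relative to other genes on the same array varied with the reference. Relative to the median of 11 fibroblast and matrix markers well above background throughout, Gli1 differed by -0.058 and Foxf1 by 0.088, and the groups overlapped for both. Relative to Ihh on the same array they differed by -2.14 and -1.99, without overlap. Relative to 5 subepithelial mesenchyme markers the differences were -1.13 for Gli1 and -0.99 for Foxf1, also without overlap. Those 5 leave out Tnc and Bmp5, at -1.85 and -1.35, which were not well above background on both metformin arrays. The filter thus removed markers that were low with metformin, and F3, which was kept, read from -1.62 to 5.94. Relative to 12 smooth muscle markers the differences of Gli1 and Foxf1 were 1.09 and 1.24, with overlap. Foxl1 differed by 1.26 relative to the fibroblast markers and by 0.18 relative to the subepithelial ones, both without overlap. These ratios show unequal change between probes on 1 array, not that any probe stayed level. The part of stromal and muscle content in the values of Gli1, Foxf1, Foxl1 and Hhip was not tested.

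**Figure D4:**
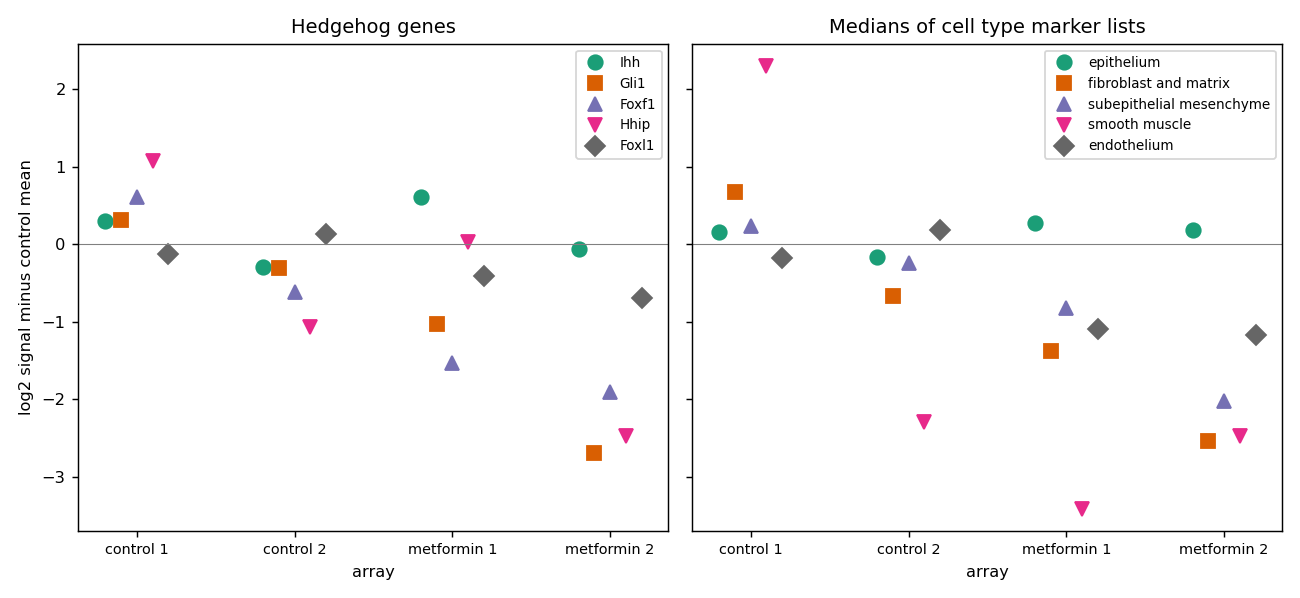
Left, 5 Hedgehog genes well above background on all arrays; right, medians of 5 marker lists (y axis: log2 signal minus the control mean; x axis: array; points are offset sideways for legibility). Gli1 and the fibroblast and matrix markers are both lowest in metformin 2, smooth muscle markers are high in control 1 only, and the Ihh point farthest from the control mean is metformin 1 at 0.60.

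Across all 14553 other named genes well above background on all 4 arrays, the profiles closest to Gli1, after centring each gene on its mean, were those of Tenm4, Fbn1 and Col5a1. Their root mean square differences from Gli1 over the 4 arrays were 0.051, 0.087 and 0.091 log2 units. Fbn1 encodes fibrillin, Col5a1 a collagen chain and Tenm4 a teneurin. Within 0.2 log2 units of Gli1 lay 10 genes. Ihh had 2720 such neighbours, led by 1700001C19Rik, the mitochondrial fusion gene Mfn2 and the peroxisomal import receptor gene Pex5, and Foxl1 had 163, led by Fbf1, Amy1 and Chst8. With 4 arrays, likeness of this kind is a description only.

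Differences of the remaining marker lists are given as context. Crypt base markers were lower in 8 of 8 (median -0.94, and -0.45 with 6 of 8 lower without metformin 1), with Tnfrsf19 at -1.49 (SE 0.50). Enteric neuron markers were lower in 9 of 10 (median -1.54, -0.24 without control 1 and -2.50 without control 2), with Tubb3 at -1.96 (SE 0.85). Adipocyte markers were lower in 7 of 9 (median -2.77), with Plin4 at -3.61 (SE 0.55). Leukocyte markers were higher in 8 of 9 (median 0.51, -0.077 without metformin 1 and 1.08 without metformin 2), with Adgre1 at 0.67 (SE 0.36). Ileum markers were lower in 6 of 6 (median -0.91, 0.29 without metformin 1, -2.0 without metformin 2 and -0.55 without control 2), proximal small intestine markers were higher in 4 of 6 (median 0.68, -0.47 without metformin 1 and 2.04 without metformin 2), and of 4 mesothelium markers only Msln was measured, at 0.17 (SE 0.89; -0.86 without control 1 and -0.54 without metformin 1). No gene of these lists passed over all genes either.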

How the data were processed

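Gene expression was measured in ileal total RNA of 2 control and 2 metformin samples. The spot intensity values were made by the authors with Agilent Feature Extraction 10.7.3.1, per the file headers, with background subtraction and spatial detrending within each array and no scaling between arrays. A single slide (1) carried the 4 arrays and was scanned 1 time, controls at positions 1 and 2 and metformin at positions 3 and 4, so position and treatment cannot be told apart. The grid build in the headers is mm9, so gene names, not coordinates, were taken from the RefSeq table of GRCm38.p6 (27508 of 39429 probes named). The deposited table called normalized held the raw median intensity of each spot (39030 of 39030 single-spot probes equal, column medians 78 to 112) and served as an alternative only. Flags of the scanner software (0 or 1 per spot, other values in the deposited files) gave the calls above background and the flagged spots left out.

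Spots of a probe were averaged on the log2 scale and 47 probes dropped because some array had only flagged spots of them. Probes well above background on both arrays of a group were kept (26441), and the brightest probe of a gene was fitted (21649 genes), using limma 3.58.1 (lmFit, then eBayes; R 4.3.3). P-values were 2-sided and adjusted by Benjamini-Hochberg over all genes and called under 0.05; the fit had 2 residual and 2.43 prior degrees of freedom. The fit was tested on simulated data. No saturated spot occurred. The number of arrays and the signal over background limit precision, as do differences in tissue content between arrays of a group. Alternatives were normexp correction, quantile normalization, median centring, the deposited table with and without scaling, other filters on dim probes, the mean of a gene's probes, limma with trend and robust, the replicate number as a block, and leaving out each array. The scanner files hold the median spot signal and no mean, so normexp used medians, with an offset of 50 signal units. The members and gene lists were chosen with earlier results of these data known. Named genes are all 9 members; of each other pathway list, genes 2-fold changed without overlap and up to 4 more of smallest unadjusted p; of each cell type list, up to 3 of smallest unadjusted p (both among genes well above background on all 4 arrays), and the 3 brightest of the epithelium and ileum lists; and, for Ihh, Gli1 and Foxl1, the 3 nearest profiles (Ptch1 was left out as it was not well above background throughout). F3, Evc, Tnc, Bmp5, Kdr and the genes that failed the filter were named after their values were seen. The differences relative to Ihh or to marker lists were added after the data were seen. Some genes that the rule names are not reported here.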

Additional observations from a re-analysis of the deposited data

How the results depend on the processing

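No alternative on all 4 arrays called any gene, and 79 of the 83 tested member values under 14 alternatives (6 members) kept their direction. The main fit was far from the threshold (smallest limma adjusted p = 0.9996), so the lack of calls says little. Changes of dim filter, probe averaging, variance model or block left the member differences as they were, so direction could not change there. Sizes did change with normexp: Dhh went from -3.10 to -0.22, Gli1 from -1.86 to -0.62 and Foxl1 from -0.55 to -0.10. Foxf1 went from -1.72 to -1.49 and Ihh from 0.27 to 0.22. The normexp setting added an offset of 50 signal units to every probe, which by arithmetic shrinks the log2 differences of dim probes most. How much of each change came from that offset was not tested. Dhh was not tested where probes had to be well above background on all 4 arrays. The 4 that reversed concern Ihh and Hhip. Ihh was -0.027 in the deposited table as it stands and ranged from -0.059 to 0.60 when 1 array was left out, and Hhip ranged from -2.47 to 0.025. The counts of genes at least 2-fold higher and lower without overlap, 137 and 499, were 13 and 116 with normexp, 22 and 198 in the deposited table after scaling, and 318 and 811 without a filter. The higher count was 10 in the deposited table as it stands and 42 for probes well above background on all arrays. Leaving out 1 array gave 354 to 1540 higher and 850 to 1776 lower. Fewer arrays overlap less often by construction, but the range between these counts, all from the same number of arrays, is not accounted for by that. The median difference of all 9 members, -0.79 (probes below background included), was -0.10 with normexp and ran from -1.74 (without control 2) to -0.15 (without control 1). Array numbers were checked for pairing: the deviations of same-numbered samples correlated at r = 0.56 across genes, but with 2 pairs and no label of a shared animal or batch they share only a number. With the replicate number as a block 0 genes were called higher and 0 lower (smallest adjusted p = 0.63), and no member's call changed. Signal over background limits Dhh, Ptch1, Gli2 and Shh most, and Foxl1 too was dim. Beyond the arithmetic of the normexp offset and of fewer arrays or genes, the cause of each change was not tested.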
